A study of Homo sapiens with 18 samples.

Results

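Interferon-stimulated genes are the genes whose transcripts accumulate when a cell senses interferon, and they include antiviral effectors, sensors of foreign RNA and the transcription factors of the pathway itself. The set described here has 39 members, taken by gene symbol from a deposited table of 41120 symbols, with the transcription factor gene IRF9 left out of it. All 39 symbols were in the table, and 30 passed the filter on low counts, out of 12291 genes tested. IFI6, RSAD2, CMPK2, CXCL10, CXCL11, HERC6, IFITM1, OAS2 and MX2, the other 9, had too few counts.

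The samples were 18 libraries of 3′ mRNA tags, each read standing for the 3′ end of a transcript. They came from SCC154-hfm and FADU-hfm cells, made from the established head and neck squamous carcinoma lines SCC154 (positive for human papillomavirus, HPV) and FaDu (HPV-negative). Cells of all 4 groups carried a transduced hypoxia fate-mapping reporter, which makes them DsRed-positive until they meet low oxygen and GFP-positive from then on. Spheroids were dissociated, GFP-positive (post-hypoxic) and DsRed-positive (non-hypoxic) cells were sorted from them, and the sorted cells were cultured and passaged in normoxia before RNA was extracted. There were 4 libraries of post-hypoxic SCC154 cells (replicates 2 to 5), 5 of non-hypoxic SCC154 cells (replicates 1 to 5), 5 of post-hypoxic FaDu cells (replicates 1 to 5) and 4 of non-hypoxic FaDu cells (replicates 1 to 4). Each HPV status is represented by 1 line, so HPV status and line cannot be told apart.

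The libraries held 1654719 to 2503573 counts each, and 1 CPM (counts scaled to a library of 1000000, with TMM factors) stood for 1.68 to 2.44 counts. The 39 members together took 1924 to 3845 counts in a library. The summed level of 7 squamous epithelial markers (keratins among them) ran from 827 to 1135 CPM, while 8 immune cell markers together reached at most 6.99 CPM and the 3 markers of plasmacytoid dendritic cells, the specialised interferon producers of blood, were at 0 in all 18 libraries. Whether replicates were cultured or sorted separately is not given in the labels, so p-values speak of the spread among these libraries alone, which may be technical. In bulk RNA, fewer cells expressing a gene and less of its RNA per cell cannot be told apart.

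Type I interferons bind the receptor IFNAR1 and IFNAR2, whose kinases JAK1 and TYK2 phosphorylate STAT2. STAT2 joins IRF9 in a complex, ISGF3, that binds the interferon-stimulated response element (ISRE) in promoters, whereas interferon gamma acts through JAK1 and JAK2 on the gamma-activated site (GAS). Epithelial cells use this response as their intrinsic defence against viruses, and the oncoproteins of HPV are known to dampen it.

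The promoters of 5 members are given because these genes carry the results below: IFI27 and ISG15 were lower in SCC154 cells and differed with replicate number in FaDu, BST2 was higher in SCC154 cells, IFIT1 lower in them, and IRF1 had the smallest adjusted p of the members between the lines. Each is the RefSeq sequence (GRCh38.p14) from 250 bases before to 50 bases after a transcription start. They lie at chr14:94110486-94110785 (plus strand), chr1:1013247-1013546 (plus strand), chr19:17405581-17405880 (minus strand), chr10:89392373-89392672 (plus strand) and chr5:132490724-132491023 (minus strand). Capitals mark every match to the ISRE core, a GAAA, any 2 bases and a second GAAA, read on both strands, in the first 4, and to the GAS core TTCNNNGAA, which is its own reverse complement, in IRF1.
IFI27: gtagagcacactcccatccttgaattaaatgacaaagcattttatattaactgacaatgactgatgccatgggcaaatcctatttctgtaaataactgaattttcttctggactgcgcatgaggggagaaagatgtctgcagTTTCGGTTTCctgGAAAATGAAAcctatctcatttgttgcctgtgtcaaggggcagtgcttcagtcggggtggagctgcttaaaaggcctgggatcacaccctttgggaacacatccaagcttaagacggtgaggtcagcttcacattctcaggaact
ISG15: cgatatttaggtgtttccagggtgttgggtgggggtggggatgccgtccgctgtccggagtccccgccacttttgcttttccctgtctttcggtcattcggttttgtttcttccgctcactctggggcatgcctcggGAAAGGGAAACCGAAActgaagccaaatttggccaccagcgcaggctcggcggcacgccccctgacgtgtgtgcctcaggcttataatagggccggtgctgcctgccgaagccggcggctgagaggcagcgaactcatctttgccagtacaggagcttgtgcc
BST2: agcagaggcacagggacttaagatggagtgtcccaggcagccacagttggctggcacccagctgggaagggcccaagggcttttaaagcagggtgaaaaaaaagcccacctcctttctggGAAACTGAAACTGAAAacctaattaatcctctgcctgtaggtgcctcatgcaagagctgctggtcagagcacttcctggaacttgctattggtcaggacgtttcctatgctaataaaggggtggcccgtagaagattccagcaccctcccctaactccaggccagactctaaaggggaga
IFIT1: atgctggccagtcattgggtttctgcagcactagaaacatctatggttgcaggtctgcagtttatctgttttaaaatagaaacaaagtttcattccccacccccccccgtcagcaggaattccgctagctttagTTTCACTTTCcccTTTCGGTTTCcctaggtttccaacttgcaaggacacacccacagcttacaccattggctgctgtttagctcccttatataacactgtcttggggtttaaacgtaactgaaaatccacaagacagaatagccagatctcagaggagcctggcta
IRF1: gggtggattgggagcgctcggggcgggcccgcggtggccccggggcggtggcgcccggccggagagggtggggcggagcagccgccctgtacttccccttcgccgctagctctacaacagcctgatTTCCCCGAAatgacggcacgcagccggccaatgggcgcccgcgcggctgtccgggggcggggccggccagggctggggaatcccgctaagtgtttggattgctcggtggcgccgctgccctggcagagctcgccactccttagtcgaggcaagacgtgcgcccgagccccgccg
IFI27, ISG15, BST2 and IFIT1 each held a pair of ISRE matches, overlapping in ISG15 and BST2, whose first bases lay 95 to 130 bases before the start. IRF1 held no ISRE match and 1 GAS match, 124 bases before its start. GAS matches, not marked here, also lay in BST2, 136 and 58 bases before its start, and in IFI27, 101 bases before its start.

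Of the 39 members, 31 had a promoter entry. An ISRE match was found in 22 of these (71.0%), against 1195 of 27305 genes (4.38%). A GAS match was found in 11 of the 31 (35.5%), against 2560 of 27305 genes (9.38%), and 5 of the 13 GAS matches overlapped an ISRE match. Among members with an entry, all 8 that were lower in SCC154 in non-hypoxic cells (below) held an ISRE match. So did 5 of the 9 that were higher and 5 of the 7 tested without a call. A GAS match was held by 1 of the 8 lower, 5 of the 9 higher and 3 of the 7 uncalled members. These shares describe the letters in the window, not bound sites.

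Post-hypoxic and non-hypoxic cells of the same line were compared to ask whether a past of low oxygen leaves a different level of interferon-stimulated transcripts once cells are back in normoxia. In SCC154 cells, 0 of the 30 tested members passed the threshold of an adjusted p under 0.05, where 0.757% of the 12291 genes did (edgeR's quasi-likelihood test, Benjamini-Hochberg adjusted; DESeq2 called 1 member and limma voom 0). The median log2 fold change, post-hypoxic over non-hypoxic, was 0.08 over the members and 0 over all genes, and 18 members were above 0 and 12 below. An unadjusted p under 0.05 was reached by 6 members (20.0%), against 15.7% of all genes. The libraries of the fractions did not overlap for 3 of 30 members, HERC5, IFIH1 and IFIT1, where 5.55% of all genes had no overlap.

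None of the 3 transcription factors of the set passed between the fractions of SCC154, while IRF9, which is not a member, did. STAT2, the signal-carrying partner of IRF9, averaged 108 ± 13.3 CPM in post-hypoxic cells (SD, n = 4) and 104 ± 11.4 CPM in non-hypoxic cells (SD, n = 5), a log2 fold change of 0.06 (SE 0.14, adjusted p = 0.867). IRF9 stood at 46.7, 71, 56.2 and 60.3 CPM in post-hypoxic cells, against 10.9, 17.4, 23.6, 13 and 17.4 CPM in non-hypoxic cells, and its log2 fold change was 1.83 (SE 0.22, adjusted p = 9.75e-05), with no overlap between the libraries. IRF1 and IRF7, factors that amplify the response, had log2 fold changes of 0.08 (SE 0.10) and 0.08 (SE 0.18). Among their textbook targets, ISG15, a ubiquitin-like modifier, was at -0.18 (SE 0.27) and MX1, an antiviral GTPase, at 0.33 (SE 0.38). The adjusted p of these 4 genes lay between 0.715 and 0.870 in the same edgeR test.

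HERC5, which attaches ISG15 to newly made proteins, came nearest to the threshold in SCC154 and was picked out after its values were seen. It stood at 20.5, 11.3, 18 and 18.2 CPM in post-hypoxic SCC154 cells, against 24.2, 25.1, 35.1, 35.1 and 41 CPM in non-hypoxic SCC154 cells. Every post-hypoxic library lay below every non-hypoxic one, and the log2 fold change was -0.90 (SE 0.22, adjusted p = 0.0557), also by edgeR. It was called by DESeq2 (adjusted p = 0.0186), in the edgeR fit with no filter on low counts (0.00566), and without FaDu post-hypoxic replicate 2 (0.0455), which enters this comparison only through scaling, filter and the shared spread. In FaDu its values overlapped, at 22.3, 41, 28.6, 25.6 and 18.9 CPM in post-hypoxic cells and 20.9, 17, 22.5 and 28 CPM in non-hypoxic cells. USP18, which removes ISG15 from proteins, had a log2 fold change of -0.70 (SE 0.27, adjusted p = 0.197) in SCC154. The 3 tested genes of the ISG15 system were all below 0 there and, at 0.31 to 0.39, all above 0 in FaDu, none with a call in this fit. These signs were not stable: ISG15 in SCC154 was at 0.0118 without SCC154 post-hypoxic replicate 2. HERC5 in FaDu reached -0.05 among the alternatives. IFIT1, which binds foreign RNA caps, averaged 11.4 ± 1.53 CPM in post-hypoxic SCC154 cells and 6.24 ± 1.72 CPM in non-hypoxic SCC154 cells (SD, n = 4 and 5), with an adjusted p of 0.139. IFIH1, the RNA sensor MDA5, averaged 10.8 ± 1.61 CPM in post-hypoxic and 16.8 ± 2.17 CPM in non-hypoxic SCC154 cells (SD, n = 4 and 5), with an adjusted p of 0.109. Thus the 3 members without overlap went in both directions, and none passed the threshold in the fit over all 18 libraries without replicate number.

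In FaDu cells, 0 of the 30 tested members passed, as did 0% of the 12291 genes (edgeR, adjusted p; 0 members by DESeq2 and by limma voom). The members' median log2 fold change was 0.05, against 0.00 over all genes, with 18 above 0 and 12 below. An unadjusted p under 0.05 was reached by 2 members, EPSTI1 (unadjusted p = 0.0159) and IFI35 (0.0447), where 2.42% of all genes reached it. EPSTI1, an interferon-induced gene of epithelial and stromal cells, was the 1 member of 30 without overlap between the fractions (1.07% of all genes): it stood at 2.72, 2.30, 1.82, 1.65 and 1.76 CPM in post-hypoxic FaDu cells and 0.475, 1.31, 0 and 1.08 CPM in non-hypoxic FaDu cells, which is 22 counts against 6 in all. ISG15 averaged 217 ± 78.4 CPM in post-hypoxic FaDu cells (SD, n = 5) and 172 ± 54.8 CPM in non-hypoxic FaDu cells (SD, n = 4), a log2 fold change of 0.33 (SE 0.22, adjusted p = 1). STAT2, IRF1, IRF7 and MX1 were at -0.06, 0.11, -0.05 and -0.01, each with an adjusted p of 1.

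Same-numbered FaDu libraries deviated together, so the 8 libraries numbered 1 to 4 were also fitted alone with the number as a block, an analysis added after the values were seen. In it ISG15 was called higher in post-hypoxic cells, with a log2 fold change of 0.37 (edgeR adjusted p = 0.0240), higher in 4 of 4 pairs. It was 1 of 27 members tested there, and 0.0837% of the 10753 genes were called. In the fit over all 18 libraries with a replicate block, no member was called in FaDu.

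The difference between the lines in the effect of the fraction (the interaction) passed for 0 of 30 members, against 0.0163% of all genes, by edgeR's adjusted p, and for 0 by DESeq2 and by limma voom. An unadjusted p under 0.05 was reached by 5 members (9.78% of all genes). HERC5 had the smallest adjusted p among the members, with an interaction of -1.21 (SE 0.32, adjusted p = 0.235) on the log2 scale. The interaction of STAT2 was 0.12 (SE 0.21), of IRF1 -0.02 (SE 0.16), of IRF7 0.13 (SE 0.32), of ISG15 -0.51 (SE 0.35) and of MX1 0.33 (SE 0.52). IRF9, at 1.48 (SE 0.34), did not pass either, with an adjusted p of 0.196.

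**Figure D1:**
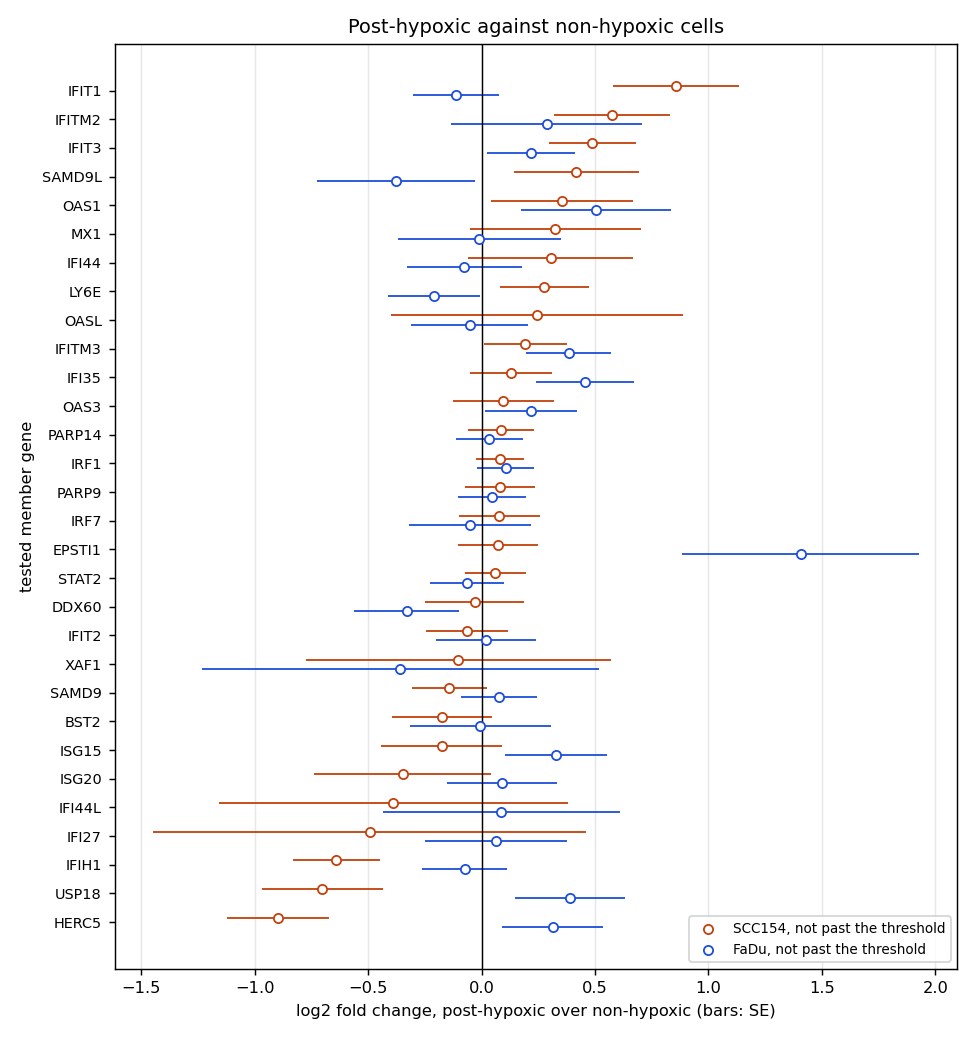
Log2 fold change of each tested member, post-hypoxic over non-hypoxic cells, in SCC154 (orange) and FaDu (blue), with bars of 1 SE. All circles are open, since 0 of 30 members passed the threshold in either line; HERC5 lies lowest in SCC154 at -0.90 and EPSTI1 highest in FaDu at 1.41.

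Between the lines most members differed. In non-hypoxic cells, 21 of the 30 tested members differed between SCC154 and FaDu (12 higher and 9 lower in SCC154), and in post-hypoxic cells 23 did (12 higher and 11 lower), by edgeR's quasi-likelihood test, Benjamini-Hochberg adjusted. These shares, 70.0% and 76.7%, are near those of all genes, of which 68.9% and 69.7% were called (34.5% higher and 34.5% lower in non-hypoxic, 34.8% higher and 34.9% lower in post-hypoxic cells), so the count is no result about these genes in particular. The median log2 fold change, SCC154 over FaDu, was 0.31 and 0.21 over the members, against -0.01 and 0.01 over all genes. Libraries of the lines did not overlap for 17 of 30 members in non-hypoxic cells (56.5% of all genes) and for 19 in post-hypoxic cells (57.3% of all genes). The 2 comparisons share no library, and 20 members were called in both, 19 of them in the same direction. They are not independent, since both come from the same fit and same-numbered FaDu libraries of the fractions deviated together. The share of all genes called in both is not given here. The members went in both directions. The 3 transcription factors were higher in SCC154 in both fractions, and so were other members, among them BST2, EPSTI1, IFIT2, IFITM2 and IFI35. ISG15, IFIT1, OASL and IFI27 were among those lower in both.

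**Figure D2:**
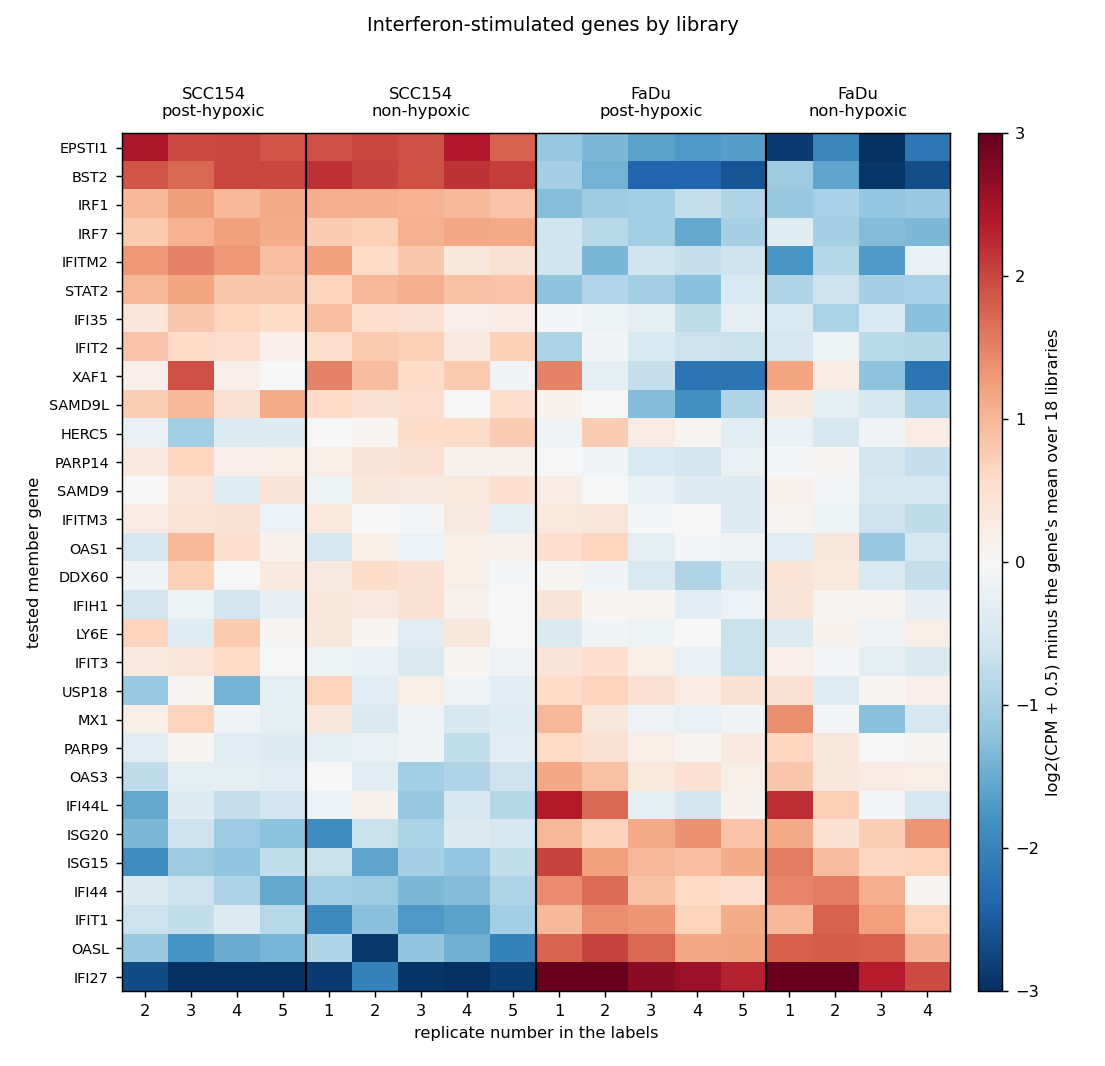
Level of the 30 tested members (rows) in the 18 libraries (columns, by replicate number), as log2(CPM + 0.5) minus the gene's mean over the libraries, ordered by the difference between the lines in non-hypoxic cells. EPSTI1, BST2 and the transcription factors are high in both SCC154 groups, IFI27, OASL, IFIT1, IFI44, ISG15 and ISG20 are high in both FaDu groups, and within FaDu the columns numbered 1 and 2 are darker red than those numbered 3 to 5 for many of the lower rows.

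All 3 transcription factors of the set were higher in SCC154 in both fractions. IRF1, a factor that needs no ISGF3 complex to act, stood at 137, 165, 137 and 153 CPM in post-hypoxic SCC154 cells and 147, 147, 144, 136 and 124 CPM in non-hypoxic SCC154 cells, against 28.3, 32.7, 33.1, 41.7 and 36.5 CPM in post-hypoxic FaDu cells and 31.4, 34.8, 30.4 and 31.8 CPM in non-hypoxic FaDu cells. The lowest SCC154 library was above the highest FaDu library, and the log2 fold change was 2.12 (SE 0.12, adjusted p = 3.55e-13) in non-hypoxic cells and 2.09 (SE 0.11, adjusted p = 1.38e-13) in post-hypoxic cells, 4.33-fold and 4.26-fold. IRF1 shares 1716 exon bases with C5orf56 (IRF1-AS1) on the opposite strand in GENCODE v29, 0 of them in its last 400 bases. IRF7, which drives transcription of the interferon genes themselves, stood at 20.9, 25.1, 28.3 and 26.3 CPM in post-hypoxic SCC154 cells and 20.2, 19.8, 25.3, 26.9 and 26.5 CPM in non-hypoxic SCC154 cells, against 7.63, 6.44, 5.45, 3.71 and 5.72 CPM in post-hypoxic FaDu cells and 9.03, 5.66, 4.49 and 4.31 CPM in non-hypoxic FaDu cells. Here too the lines did not overlap, with log2 fold changes of 2.00 (SE 0.22, adjusted p = 3.69e-08) and 2.13 (SE 0.21, adjusted p = 5.92e-09) in non-hypoxic and post-hypoxic cells.

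STAT2 followed the same order, at 111, 126, 98.8 and 97.1 CPM in post-hypoxic SCC154 cells and 87.4, 110.2, 118, 102 and 101 CPM in non-hypoxic SCC154 cells, against 23.4, 29.9, 27.2, 22.7 and 40 CPM in post-hypoxic FaDu cells and 29.5, 34.8, 27.5 and 28 CPM in non-hypoxic FaDu cells. Its log2 fold change, SCC154 over FaDu, was 1.78 (SE 0.15, adjusted p = 4.55e-10) in non-hypoxic cells and 1.91 (SE 0.15, adjusted p = 6.68e-11) in post-hypoxic cells, by edgeR. IRF9, its partner, differed between the lines in post-hypoxic cells, at 1.65 (SE 0.22, adjusted p = 4.72e-07), and had 0.16 (SE 0.26, adjusted p = 0.585) in non-hypoxic cells. The levels of IRF9 in FaDu were 24.5, 16.1, 15, 15.3 and 22.4 CPM in post-hypoxic and 20.9, 17.4, 7.99 and 11.3 CPM in non-hypoxic cells, within the range of non-hypoxic SCC154 cells or close to it.

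In the ISG15 system the modifier was lower in SCC154 in both fractions, while its enzymes were lower in post-hypoxic cells and not in non-hypoxic cells. ISG15 stood at 23.8, 41.2, 38.1 and 52.2 CPM in post-hypoxic SCC154 cells and 54.8, 29, 43.7, 38.6 and 51.8 CPM in non-hypoxic SCC154 cells, against 354, 205, 172, 163 and 189.6 CPM in post-hypoxic FaDu cells and 251, 165, 133 and 138 CPM in non-hypoxic FaDu cells. No SCC154 library reached the lowest FaDu library, and the log2 fold change was -1.98 (SE 0.24, adjusted p = 1.47e-07) in non-hypoxic and -2.48 (SE 0.26, adjusted p = 9.17e-09) in post-hypoxic cells, 3.94-fold and 5.6-fold lower in SCC154. USP18, the ISG15 protease, was at -0.04 (adjusted p = 0.908) in non-hypoxic cells and was lower in SCC154 in post-hypoxic cells, at -1.13 (adjusted p = 4.81e-04). HERC5 had opposite signs, at 0.55 (adjusted p = 0.0297) in non-hypoxic and -0.66 (adjusted p = 0.0127) in post-hypoxic cells. Its non-hypoxic call was lost without SCC154 non-hypoxic replicate 4 (0.51) or 5 (0.45) and without non-hypoxic FaDu replicate 1 (0.53), 2 (0.44) or 3 (0.56), and its post-hypoxic call without FaDu post-hypoxic replicate 2 (-0.47). With FaDu replicates 3 to 5 only, HERC5 passed in neither fraction, at 0.34 in non-hypoxic (edgeR adjusted p = 0.232) and -0.51 in post-hypoxic cells (0.060).

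The RNA sensors and nucleases that passed in non-hypoxic cells, 3 of 6 tested (68.9% of all genes passed there), were all lower in SCC154. OASL, a relative of the OAS enzymes that enhances RNA sensing, stood at 1.23, 0.597, 0.820 and 0.908 CPM in post-hypoxic SCC154 cells and 1.48, 0, 1.15, 0.867 and 0.415 CPM in non-hypoxic SCC154 cells, against 12, 14.7, 11.8, 7.84 and 7.92 CPM in post-hypoxic FaDu cells and 12.4, 12.6, 12.5 and 7.01 CPM in non-hypoxic FaDu cells. This is 8 counts in each SCC154 group against 117 and 93 counts in the FaDu groups, with log2 fold changes of -3.78 (SE 0.40, adjusted p = 1.54e-08) in non-hypoxic and -3.48 (SE 0.40, adjusted p = 5.69e-08) in post-hypoxic cells. OAS3, an enzyme that makes the second messenger of RNase L from double-stranded RNA, stood at 26.6, 37, 36.9 and 35.8 CPM in post-hypoxic SCC154 cells and 45.9, 36.7, 22.4, 24.3 and 29.4 CPM in non-hypoxic SCC154 cells, against 102, 83.7, 56.8, 62.7 and 51.9 CPM in post-hypoxic FaDu cells and 80.3, 57.9, 53.9 and 52.3 CPM in non-hypoxic FaDu cells. The lines did not overlap in either fraction, with log2 fold changes of -0.94 (SE 0.21, adjusted p = 4.29e-04) and -1.07 (SE 0.21, adjusted p = 1.16e-04) in non-hypoxic and post-hypoxic cells.

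ISG20, an exonuclease that degrades viral RNA, stood at 1.64, 2.98, 2.05 and 1.82 CPM in post-hypoxic SCC154 cells and 0.987, 2.90, 2.30, 3.47 and 3.32 CPM in non-hypoxic SCC154 cells, against 10.4, 8.28, 11.4, 13.2 and 9.24 CPM in post-hypoxic FaDu cells and 11.4, 6.97, 8.49 and 12.9 CPM in non-hypoxic FaDu cells. Its log2 fold changes were -1.88 (SE 0.30, adjusted p = 6.32e-06) in non-hypoxic and -2.32 (SE 0.31, adjusted p = 6.82e-07) in post-hypoxic cells, both by edgeR. OAS1 and the helicase IFIH1 did not pass in either fraction, at 0.31 and 0.16 in non-hypoxic cells and 0.16 and -0.41 in post-hypoxic cells. DDX60, a helicase of the same kind, was at 0.30 in non-hypoxic cells and was called higher in SCC154 in post-hypoxic cells, at 0.60 (adjusted p = 0.0210), a call lost without SCC154 post-hypoxic replicate 3 (0.43) or FaDu post-hypoxic replicate 4 (0.49). The DDX60 call was lost also with FaDu replicates 1 and 2 only, at 0.28 (edgeR adjusted p = 0.312). Without SCC154 non-hypoxic replicate 1 and post-hypoxic replicate 3 it was lost too, at 0.44 (0.103).

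The 3 IFIT genes, neighbours on chromosome 10, did not share a direction: IFIT1 was lower in SCC154, IFIT2 higher, and IFIT3 did not pass. IFIT1 stood at 11.5, 10.7, 13.5 and 9.98 CPM in post-hypoxic SCC154 cells and 4.44, 7.25, 5.18, 5.64 and 8.71 CPM in non-hypoxic SCC154 cells, against 36, 48.3, 46.3, 29.3 and 39.6 CPM in post-hypoxic FaDu cells and 36.6, 62.7, 42.9 and 29.1 CPM in non-hypoxic FaDu cells. It was lower in SCC154, at -2.76 (SE 0.24, adjusted p = 4.60e-10) in non-hypoxic and -1.79 (SE 0.22, adjusted p = 1.95e-07) in post-hypoxic cells. IFIT2, a partner of IFIT1 that promotes cell death, stood at 31.5, 25.7, 25 and 19.1 CPM in post-hypoxic SCC154 cells and 24.7, 30, 28.2, 21.3 and 28.6 CPM in non-hypoxic SCC154 cells, against 8.72, 16.1, 12.3, 10.7 and 10.6 CPM in post-hypoxic FaDu cells and 11.9, 15.2, 9.48 and 9.17 CPM in non-hypoxic FaDu cells. It was higher in SCC154, at 1.19 (SE 0.20, adjusted p = 1.59e-05) and 1.11 (SE 0.20, adjusted p = 2.56e-05) in non-hypoxic and post-hypoxic cells, and for both genes the lines did not overlap. IFIT3, the third of the complex, was at -0.03 and 0.24. All 3 lie inside the span of LIPA on the opposite strand (GENCODE v29), with 0 shared exon bases in their last 400.

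The membrane restriction factors that passed were higher in SCC154, 2 of 4 tested in non-hypoxic and 3 of 4 in post-hypoxic cells. Of all genes, 68.9% and 69.7% passed in these fractions. BST2 (tetherin), which holds budding virus particles on the cell surface, stood at 262, 234, 285 and 289 CPM in post-hypoxic SCC154 cells and 328, 291, 269, 320.1 and 302 CPM in non-hypoxic SCC154 cells, against 35.4, 26.2, 13.2, 13.2 and 11.4 CPM in post-hypoxic FaDu cells and 33.8, 23.5, 8.98 and 10.8 CPM in non-hypoxic FaDu cells. The lines were far apart, with log2 fold changes of 3.95 (SE 0.28, adjusted p = 1.91e-11) in non-hypoxic and 3.78 (SE 0.26, adjusted p = 1.14e-11) in post-hypoxic cells, 15.4-fold and 13.7-fold. IFITM2, which blocks virus entry in endosomes, stood at 11.5, 13.1, 11.5 and 8.62 CPM in post-hypoxic SCC154 cells and 10.9, 6.77, 8.05, 5.64 and 6.22 CPM in non-hypoxic SCC154 cells, against 2.72, 1.38, 2.72, 2.48 and 2.64 CPM in post-hypoxic FaDu cells and 0.951, 2.18, 0.998 and 3.77 CPM in non-hypoxic FaDu cells. Its log2 fold changes were 1.91 (SE 0.35, adjusted p = 4.53e-05) and 2.19 (SE 0.30, adjusted p = 9.27e-07) in non-hypoxic and post-hypoxic cells, but its level is uncertain: IFITM1 and IFITM2 share 351 exon bases at their 3′ ends on the same strand in GENCODE v29, and 46.2% of the 50-base stretches in its last 400 bases also occur in other genes. IFITM3 was at 0.38 and 0.19 without a call. LY6E, a factor against coronavirus fusion, was called in post-hypoxic cells (0.62, adjusted p = 0.00841) and was at 0.13 in non-hypoxic cells. The LY6E call was lost without SCC154 post-hypoxic replicate 4 (0.46) and with FaDu replicates 1 and 2 only (0.61, edgeR adjusted p = 0.0663).

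MX1 stood at 23.8, 33.4, 19.3 and 17.2 CPM in post-hypoxic SCC154 cells and 26.7, 15.5, 19.6, 14.7 and 16.2 CPM in non-hypoxic SCC154 cells, against 42.5, 26.7, 19.5, 17.7 and 19.8 CPM in post-hypoxic FaDu cells and 56.1, 20.5, 8.49 and 14.6 CPM in non-hypoxic FaDu cells. The values overlapped widely and the log2 fold changes, -0.45 (SE 0.37, adjusted p = 0.297) in non-hypoxic and -0.11 (SE 0.37, adjusted p = 0.798) in post-hypoxic cells, did not pass. Their sign depended on the FaDu libraries used: with FaDu replicates 3 to 5 only they were 0.67 and 0.27, and with FaDu replicates 1 and 2 only -1.06 (called) and -0.58. Without FaDu non-hypoxic replicate 1 alone, the non-hypoxic value was 0.33.

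All 4 tested PARP and SAMD9 genes passed in non-hypoxic cells, 3 higher and 1 lower in SCC154, and 3 of 4 passed in post-hypoxic cells. With 68.9% and 69.7% of all genes passing, counts in so short a list are no result about these genes in particular. PARP9, an ADP-ribosyltransferase that works with the ubiquitin ligase DTX3L, stood at 64.7, 83.5, 63.5 and 61.7 CPM in post-hypoxic SCC154 cells and 65.6, 70.1, 74.8, 48.1 and 63.9 CPM in non-hypoxic SCC154 cells, against 121, 111, 91.7, 85 and 99 CPM in post-hypoxic FaDu cells and 127, 102, 80.4 and 82.5 CPM in non-hypoxic FaDu cells. It was lower in SCC154, at -0.61 (SE 0.15, adjusted p = 0.00108) and -0.57 (SE 0.15, adjusted p = 0.00190) in non-hypoxic and post-hypoxic cells, and with FaDu replicates 3 to 5 only the non-hypoxic difference was -0.35 (edgeR adjusted p = 0.0672). PARP14, of the same family, was higher in SCC154 (0.53 and 0.58). SAMD9 and SAMD9L, paralogous antiviral restriction factors, were at 0.48 and 0.74 in non-hypoxic cells and 0.26 and 1.53 in post-hypoxic cells, where SAMD9 did not pass. In non-hypoxic cells the SAMD9 call was lost without FaDu non-hypoxic replicate 3 or 4, both at 0.39, and that of SAMD9L, at 0.57 to 0.73, when 1 non-hypoxic library, SCC154 replicate 1, 2, 3 or 5 or FaDu replicate 2, 3 or 4, was left out. With FaDu replicates 1 and 2 only, none of these 3 non-hypoxic differences passed by edgeR, at 0.25 for PARP14 (adjusted p = 0.16), 0.22 for SAMD9 (0.318) and 0.41 for SAMD9L (0.212).

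Of the other induced proteins, 5 of 6 tested passed in each fraction, 2 higher and 3 lower in SCC154, where 68.9% and 69.7% of all genes passed. They hold the widest differences of the set. IFI27, a small membrane protein widely used as a marker of interferon exposure, stood at 2.87, 1.79, 2.05 and 0.908 CPM in post-hypoxic SCC154 cells and 2.47, 4.83, 2.30, 1.73 and 2.49 CPM in non-hypoxic SCC154 cells, against 338, 275, 142, 127 and 107 CPM in post-hypoxic FaDu cells and 302, 257, 109 and 83 CPM in non-hypoxic FaDu cells. The SCC154 groups held 17 and 29 counts in all, against 2081 and 1598 in the FaDu groups, and the log2 fold change was -6.07 (SE 0.49, adjusted p = 1.43e-10) in non-hypoxic and -6.63 (SE 0.55, adjusted p = 2.48e-10) in post-hypoxic cells, 67.1-fold and 98.7-fold lower in SCC154. EPSTI1 went the other way, at 37.7, 27.4, 27.9 and 25.9 CPM in post-hypoxic SCC154 cells and 26.7, 28, 26.5, 36.9 and 23.6 CPM in non-hypoxic SCC154 cells, against 2.72, 2.30, 1.82, 1.65 and 1.76 CPM in post-hypoxic FaDu cells and 0.475, 1.31, 0 and 1.08 CPM in non-hypoxic FaDu cells. Its log2 fold changes were 5.18 (SE 0.33, adjusted p = 3.13e-12) and 3.85 (SE 0.26, adjusted p = 5.81e-12) in non-hypoxic and post-hypoxic cells, the first resting on 6 counts in non-hypoxic FaDu cells.

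IFI44, a cytoplasmic protein of uncertain function, stood at 12.3, 10.7, 8.61 and 5.45 CPM in post-hypoxic SCC154 cells and 7.90, 7.73, 6.33, 6.51 and 8.71 CPM in non-hypoxic SCC154 cells, against 45.8, 54.3, 31.3, 25.6 and 23.8 CPM in post-hypoxic FaDu cells and 47.1, 49.6, 36.4 and 17.3 CPM in non-hypoxic FaDu cells. It was lower in SCC154 in both fractions without overlap, at -2.33 (SE 0.30, adjusted p = 3.82e-07) and -1.95 (SE 0.30, adjusted p = 4.80e-06) in non-hypoxic and post-hypoxic cells. IFI35, a leucine zipper protein, stood at 25.8, 35.2, 31.6 and 29.5 CPM in post-hypoxic SCC154 cells and 37.5, 29, 27.6, 22.1 and 23.2 CPM in non-hypoxic SCC154 cells, against 19.1, 17.9, 16.3, 11.6 and 16.3 CPM in post-hypoxic FaDu cells and 14.3, 10, 14.5 and 8.09 CPM in non-hypoxic FaDu cells. It was higher in SCC154, at 1.24 (SE 0.21, adjusted p = 1.17e-05) and 0.91 (SE 0.19, adjusted p = 1.76e-04). IFI44L, the paralogue and neighbour of IFI44, was lower in SCC154 (-1.53 and -2.0), but in non-hypoxic cells this rested on FaDu non-hypoxic replicate 1, without which it was -0.65 (edgeR adjusted p = 0.367). Its non-hypoxic call was lost also without SCC154 non-hypoxic replicate 3 or 5, at -1.39 and -1.41. With FaDu replicates 3 to 5 only, the difference passed in neither fraction, at -0.20 in non-hypoxic (edgeR adjusted p = 0.704) and -0.63 in post-hypoxic cells (0.170). XAF1, a pro-apoptotic protein, did not pass (0.85 and 1.11), and its 3′ end lies over PRAL on the opposite strand.

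**Figure D3:**
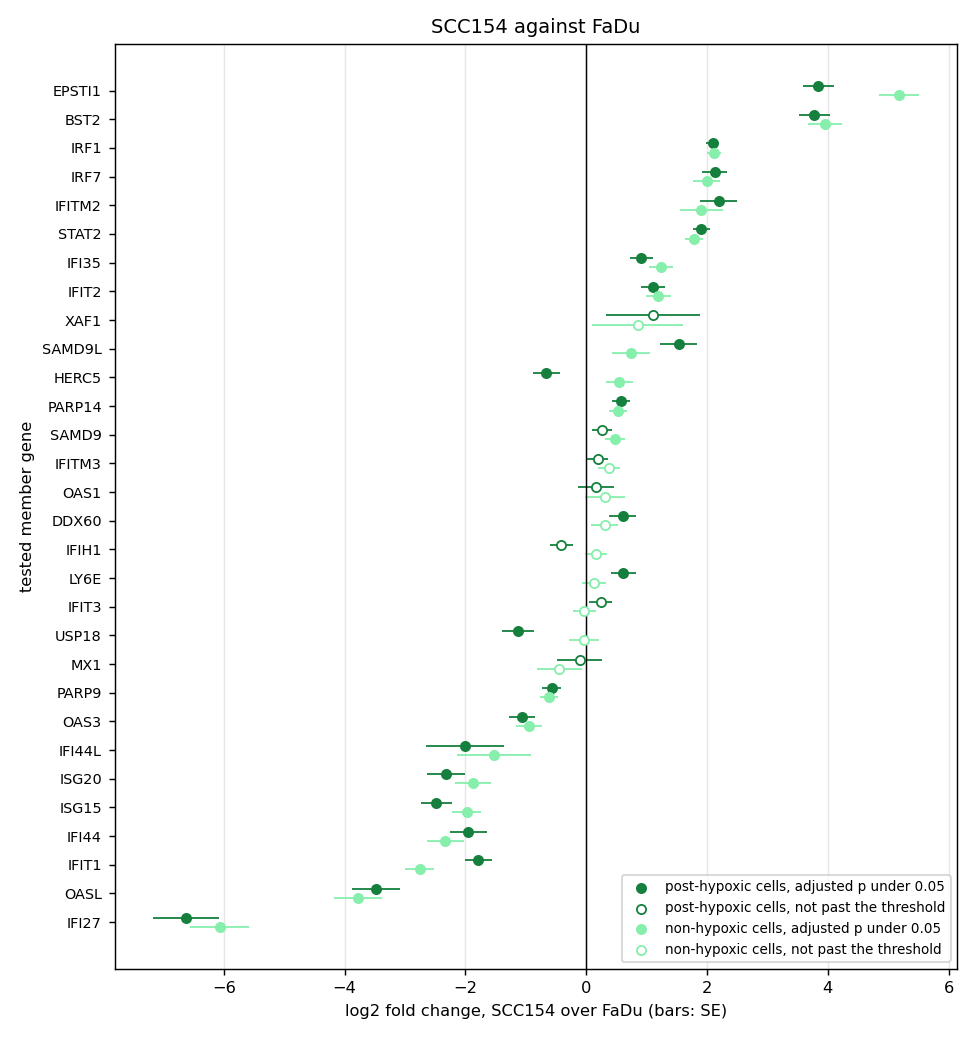
Log2 fold change of each tested member, SCC154 over FaDu, in post-hypoxic (dark green) and non-hypoxic (light green) cells, with bars of 1 SE; filled circles have an adjusted p under 0.05. EPSTI1 and BST2 lie farthest to the right, IFI27 farthest to the left at -6.07 and -6.63, and HERC5 is the 1 member called in opposite directions.

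The 9 members below the filter were looked at in a fit of all 22591 genes with a count. HERC6, the ISG15 ligase of rodents whose human form has lost that role, OAS2 and CMPK2, a mitochondrial nucleotide kinase, were lower in SCC154 in both fractions. HERC6 was at -1.79 in non-hypoxic and -2.29 in post-hypoxic cells, OAS2 at -1.59 and -1.85, and CMPK2 at -2.55 and -2.07, with edgeR adjusted p between 1.26e-04 and 0.00560. MX2, the nuclear-pore relative of MX1, was called higher in SCC154 in post-hypoxic cells alone (adjusted p = 0.00866), where it had 24 counts against 8 in FaDu. RSAD2 (viperin) had 0 and 1 counts in post-hypoxic and non-hypoxic SCC154 cells and 6 and 3 in those of FaDu, and was called lower in SCC154 in post-hypoxic cells (adjusted p = 0.0322), where no fold is given against 0 counts. Of the others, IFI6 and IFITM1 had 3 counts or fewer in each group. The chemokines CXCL10 and CXCL11, which attract T cells, had 1 and 1 counts in post-hypoxic and 1 and 4 in non-hypoxic SCC154 cells, and 0 in FaDu.

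Within FaDu, many members differed with the replicate number given in the labels. IFI27 shows it: post-hypoxic replicates 1 to 5 stood at 338, 275, 142, 127 and 107 CPM and non-hypoxic replicates 1 to 4 at 302, 257, 109 and 83 CPM, so that numbers 1 and 2 of either fraction lay above all others. IFI44L had 31.6, 19.3, 4.54, 3.71 and 6.16 CPM in post-hypoxic and 28, 9.58, 5.49 and 3.77 CPM in non-hypoxic replicates in the same order of numbers. For BST2 the values given above show the same split, with 23.5 to 35.4 CPM in numbers 1 and 2 and 8.98 to 13.2 CPM in numbers 3 to 5. The summed level of all members was 1970.0, 1712, 1281, 1182 and 1215 CPM in post-hypoxic FaDu replicates 1 to 5 and 1781, 1546, 1090.1 and 1037 CPM in non-hypoxic FaDu replicates 1 to 4. In SCC154 it ran from 1567 to 1775 CPM in post-hypoxic and from 1584 to 1650.2 CPM in non-hypoxic cells.

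An F test of the number, added after the values were seen, was run on the same-numbered libraries of each line with the fraction as a second term (8 libraries per line). In FaDu it called 16 of 27 tested members (59.3%), where 23.4% of the 10753 genes were called. IFI27 had the smallest p of all 10753 genes (edgeR adjusted p = 5.75e-11). ISG15 (2.16e-08), IFI44L (1.85e-07), BST2 (6.08e-06), MX1 (6.98e-06), PARP14 (2.82e-05), IFI44 (8.19e-05) and SAMD9 (1.97e-04) followed, each with its adjusted p in parentheses, and DDX60, OAS3, IFIT1, PARP9, IFITM3, SAMD9L, IFIT3 and LY6E were called too. The transcription factors were not: STAT2, IRF1 and IRF7 had adjusted p of 0.386, 0.569 and 0.201. IRF9 was called (0.0300), and so were 6 of 36 tested pathway genes, IFI16, EIF2AK2, TRIM25, DTX3L, ADAR and STAT3. In SCC154 the same test called 2 of 25 members, LY6E (0.0317) and ISG15 (0.0358), against 3.24% of the 11281 genes tested there.

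The share of counts from mitochondrially encoded genes also differed between these libraries. It was 2.38% and 2.04% in post-hypoxic FaDu replicates 1 and 2 and 2.48% and 2.34% in the non-hypoxic ones, against 1.83%, 1.67% and 2.09% in post-hypoxic replicates 3 to 5 and 1.98% and 1.74% in non-hypoxic replicates 3 and 4. Its part in the result was not tested. Of the squamous markers, KRT5 and KRT6A were called by number, 2 of 7 tested, where 23.4% of all genes tested in FaDu were called. The labels give no date, batch or culture for a replicate number. An ISRE match was present in the promoters of 14 of the 15 called members with an entry and in 3 of the 7 other tested members with one. Whether the match has a part in the split was not tested.

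**Figure D4:**
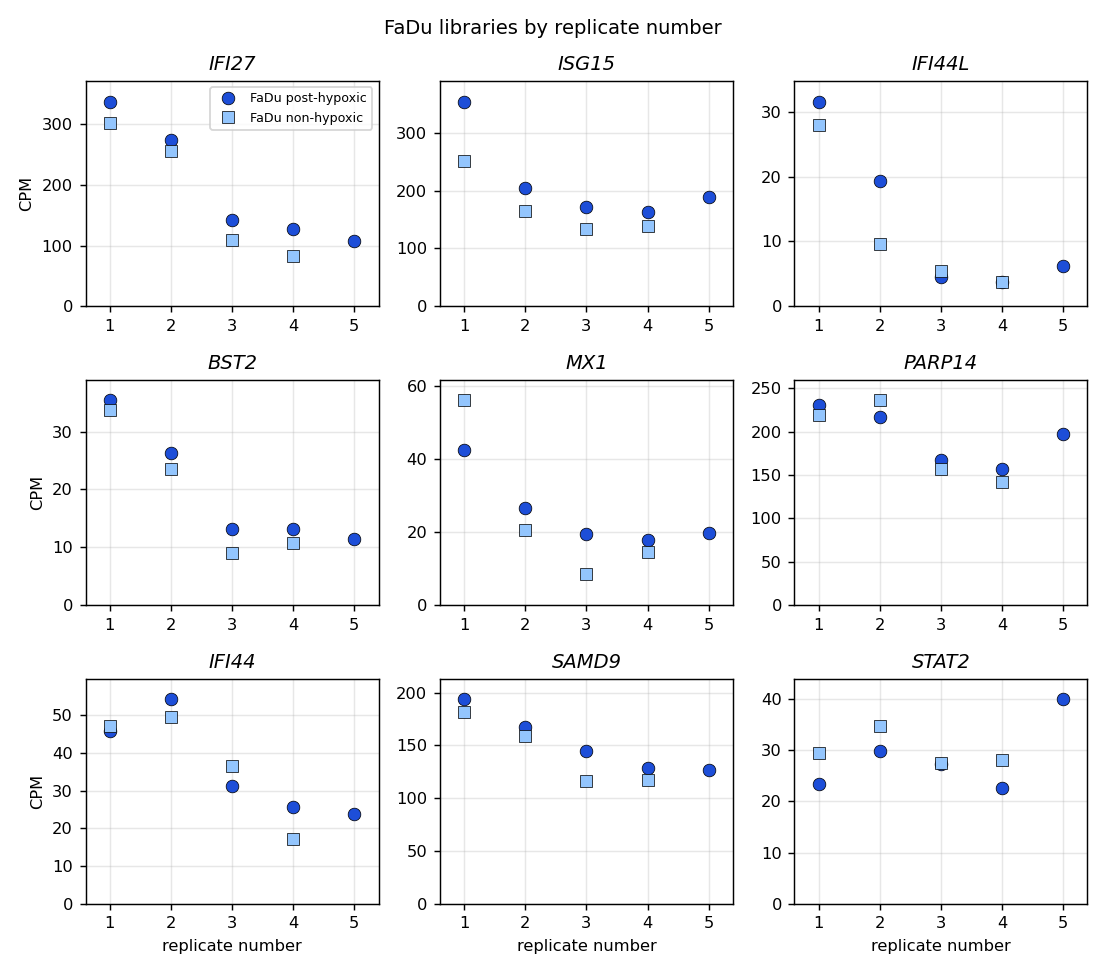
Level in CPM of 8 members with the smallest adjusted p for replicate number, and of STAT2, in FaDu libraries by replicate number, for post-hypoxic (dark circles) and non-hypoxic (light squares) cells. Numbers 1 and 2 lie above numbers 3 and 4 in both fractions for the first 8 genes. For STAT2 they do so narrowly in non-hypoxic cells (29.5 and 34.8 against 27.5 and 28.0 CPM) and not in post-hypoxic cells.

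The split touches the size of the line differences and the balance of their directions. With FaDu replicates 1 and 2 only, 20 members were called in non-hypoxic cells, 9 higher and 11 lower in SCC154, and with replicates 3 to 5 only 21 were, 14 higher and 7 lower, by edgeR. In post-hypoxic cells the counts were 10 higher and 14 lower, and 15 higher and 9 lower. The shares of all genes called in these subset fits are not given here, so the shift in the counts is no result about the members in particular. In non-hypoxic cells IFI27 was at -6.65 with numbers 1 and 2 and at -5.11 with numbers 3 to 5, ISG15 at -2.27 and -1.65, and BST2 at 3.39 and 4.92. All 3 kept their direction and their call within each set of numbers.

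Of 69 other genes of the pathway, 44 were tested. Within SCC154, within FaDu and in the interaction 0 of them passed by edgeR's adjusted p, with an unadjusted p under 0.05 in 3, 1 and 4 genes (15.7%, 2.42% and 9.78% of all genes tested). Between the lines 36 of 44 differed in non-hypoxic cells (23 higher and 13 lower in SCC154) and 34 in post-hypoxic cells (22 higher and 12 lower), shares of 81.8% and 77.3%, where 68.9% and 69.7% of all genes were called. Genes for the interferons themselves were barely read: 17 of 21 had no count in any library, and the filter left IFNE, an epithelial type I interferon, which did not pass in non-hypoxic cells (0.71, adjusted p = 0.120) and was higher in SCC154 in post-hypoxic cells (1.27, adjusted p = 0.00635). IFNB1 had 2 counts in each SCC154 group and 0 in the FaDu groups. IFNL1, a lambda interferon, had 0 counts in both SCC154 groups and 11 and 8 counts in post-hypoxic and non-hypoxic FaDu cells.

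Of 5 tested receptor genes, 1 was higher and 3 were lower in SCC154 in non-hypoxic cells, and the counts were the same in post-hypoxic cells. For this list and those that follow, the shares of all genes called were 68.9% in non-hypoxic and 69.7% in post-hypoxic cells. IFNAR1, a chain of the type I receptor, averaged 53 ± 2.69 CPM in non-hypoxic SCC154 cells (SD, n = 5) and 84.5 ± 5.57 CPM in non-hypoxic FaDu cells (SD, n = 4), a log2 fold change of -0.67 (SE 0.12, adjusted p = 3.86e-05). IFNLR1, the specific chain of the lambda receptor, was lower at -1.06, and IFNGR1, of the gamma receptor, higher at 0.98. The 4 receptor kinases and STATs of the list were all called higher in SCC154 in non-hypoxic cells. In post-hypoxic cells 3 of the 4 were called higher, and the lowest log2 fold change was 0.25. JAK2, the kinase of the gamma receptor, stood at 59.2, 63.3, 49.5, 39 and 46.9 CPM in non-hypoxic SCC154 cells, against 7.13, 6.10, 4.49 and 4.85 CPM in non-hypoxic FaDu cells. The lines did not overlap, and the log2 fold change was 3.17 (SE 0.21, adjusted p = 8.35e-12). STAT3 and JAK1 were higher as well (0.93 and 0.49).

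Of 15 tested sensors and adaptors, 8 were higher and 4 lower in SCC154 in non-hypoxic cells, and 7 higher and 5 lower in post-hypoxic cells. Here too 68.9% and 69.7% of all genes were called. IFI16, a nuclear DNA sensor, averaged 587 ± 91.5 CPM in non-hypoxic SCC154 cells and 164 ± 46.5 CPM in non-hypoxic FaDu cells (SD, n = 5 and 4), 1.83 on the log2 scale. CGAS, the cytosolic DNA sensor, was lower at -1.44, and MAVS, the adaptor of RNA sensing, higher at 0.84. STING1, the adaptor downstream of CGAS, had 1 and 4 counts in post-hypoxic and non-hypoxic SCC154 cells, against 58 and 40 in FaDu. Among 7 feedback regulators 4 were higher and 2 lower in non-hypoxic cells, with PIAS1 at 1.22, IRF2 at 0.99 and PTPN1 at -0.50. Post-hypoxic cells gave the same counts. Of 12 other interferon-induced genes 6 were higher and 4 lower in non-hypoxic cells, and 6 higher and 2 lower in post-hypoxic cells. Those with the smallest adjusted p in non-hypoxic cells, the nuclear body genes SP100, SP110 and PML, were at -0.89, -0.93 and -0.71 there. STING1 and SOCS3, a feedback inhibitor of JAK kinases, are shown after their values were seen.

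**Figure D5:**
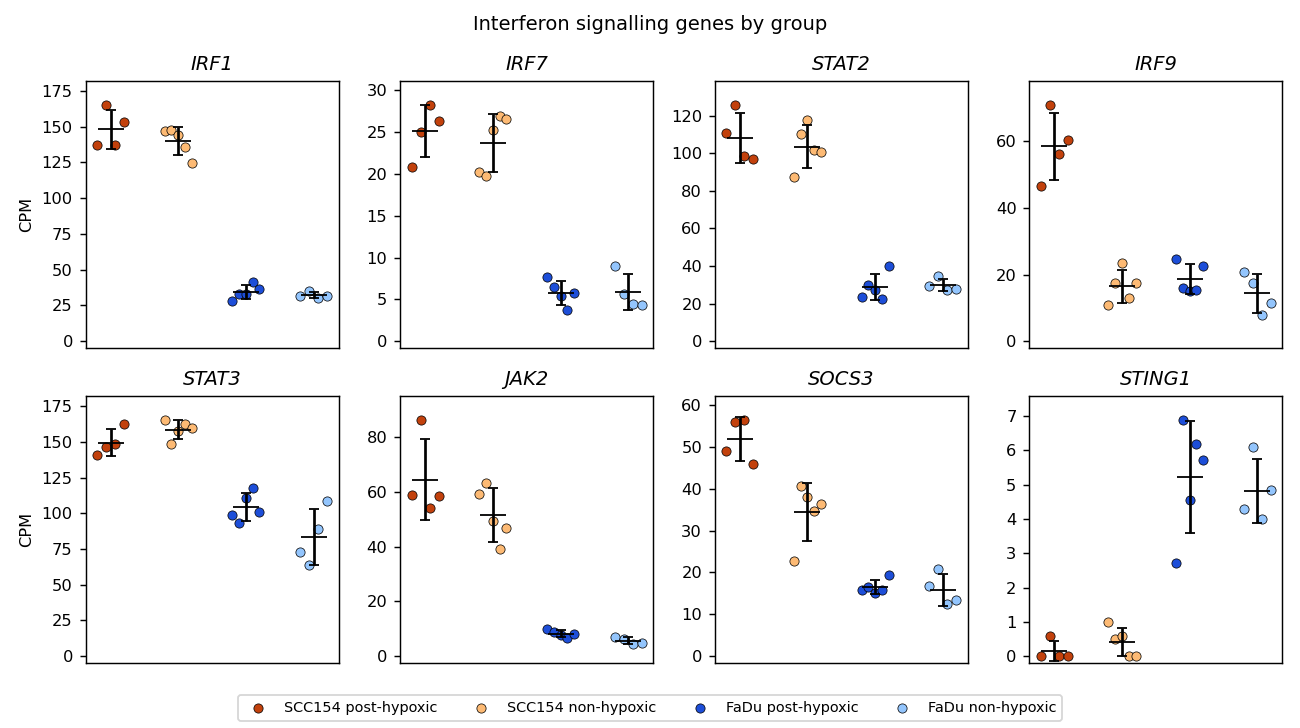
Level in CPM of 3 transcription factors of the set, IRF9 and 4 other genes of interferon signalling in each library, by group, with the group mean and 1 SD. IRF1, IRF7, STAT2, STAT3, JAK2 and SOCS3 are higher in both SCC154 groups than in the FaDu groups, STING1 lower, and IRF9 is highest in post-hypoxic SCC154 cells.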

How the data were processed

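The labels give 18 human 3′ mRNA tag libraries, read on an Illumina instrument. The deposited values are raw counts per gene symbol, made by the authors. Per the submitters' processing notes, the tools included featureCounts 1.5.1, HISAT2 2.2.1, FastQC 0.11.9, UMI-tools 1.1.5, DESeq2 and Trimmomatic 0.39, with build hg38. Not given in the sources used here were the order and settings of these steps, the annotation, the treatment of reads with several matches and the use of strand, and genes with shared or overlapping 3′ ends are uncertain. Table columns were matched to samples by the library name in each sample's description, and 0 columns were without a sample.

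Counts were analysed in R 4.3.3 with edgeR 4.0.16: genes were kept by filterByExpr over the 4 groups (12291 kept), scaled by TMM, and fitted with 4 group means over all 18 libraries (14 residual degrees of freedom). Quasi-likelihood F tests were adjusted by Benjamini-Hochberg over all genes kept, with a threshold of 0.05. A standard error is the log2 fold change divided by the root of F, and a level is CPM over TMM-scaled library size, with its SD over replicates. The code was tested on simulated data. Tag counts do not scale with transcript length, and levels are compared between libraries, not between genes. Counting error alone allows up to 3 counts where 0 were read. Replicates of a group differed by more than sampling noise (chi-square per degree of freedom 1.84 to 11.7 over 32 pairs), and each counts as 1.

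Alternatives were DESeq2 size factors, upper-quartile factors, no filter, DESeq2 1.42.0, limma voom (limma 3.58.1), the groups compared alone, a replicate block, and each library left out. Chosen after seeing the data were FaDu replicates 1 and 2 only, FaDu replicates 3 to 5 only, SCC154 with non-hypoxic replicate 1 and post-hypoxic replicate 3 left out, and the test of replicate number. In FaDu, deviations of same-numbered libraries from their group means correlated at 0.447, 0.178, 0.208 and 0.438 over all genes tested, and the numbers were taken as pairs. Their origin is not stated in the labels.

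The members, gene lists and markers were chosen with earlier results of these data known. Named members are those past the threshold within a line or in the interaction (none), the 8 in each direction with the smallest adjusted p between the lines in non-hypoxic cells, and STAT2, IRF1, IRF7, ISG15 and MX1. Up to 3 genes of each pathway list are named by the smallest adjusted p there, and IRF9 stands beside STAT2. One other gene of the pathway is not reported here. Other genes were named after their values were seen. Promoters are RefSeq sequences of GRCh38.p14, and gene positions and overlaps are from GENCODE v29.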

Additional observations from a re-analysis of the deposited data

Results flagged for a closer look

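Among 120 groups of 4 or 5 libraries (30 members in 4 groups), 10 held a library whose gap to the nearest other passed Dixon's 95% limit, and chance alone gives about 1 in 20 groups. In post-hypoxic SCC154 cells these were replicate 2 for OAS3 (26.6 CPM, low) and EPSTI1 (37.7 CPM, high), and replicate 3 for PARP9 (83.5 CPM, high) and XAF1 (8.35 CPM, high). In non-hypoxic SCC154 cells they were replicate 4 for SAMD9L (8.67 CPM, low) and replicate 2 for IFI27 (4.83 CPM, high). In post-hypoxic FaDu cells replicate 1 stood apart for ISG15 (354 CPM, high) and XAF1 (5.99 CPM, high), and replicate 2 for IFITM2 (1.38 CPM, low). In non-hypoxic FaDu cells replicate 4 was low for OASL (7.01 CPM). FaDu replicate 1 was also the highest non-hypoxic library for ISG15, at 251 CPM.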

How the results depend on the processing

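Of the members' counts, the line comparisons kept theirs within 1.5 times under every alternative run. They gave 19 to 23 calls in non-hypoxic and 22 to 25 in post-hypoxic cells with 1 library left out, and 20 to 24 and 22 to 28 under the others. Of 896 values of the 16 members named between the lines, 895 kept their direction and call, and PARP9 in non-hypoxic cells lost its call with FaDu replicates 3 to 5 only (-0.35). IFI44L lost both calls with FaDu replicates 3 to 5 only (-0.20 in non-hypoxic and -0.63 in post-hypoxic cells) and its non-hypoxic call with limma voom (-1.17), and fell below the filter with the post-hypoxic groups compared alone. In FaDu the count of calls between the fractions was 0 in all 29 alternatives. In SCC154 it was 0 in the reported fit, 1 with no filter, 1 with DESeq2, 1 with FaDu replicates 3 to 5 only, and 0 to 1 with 1 library left out, HERC5 each time. SCC154 numbers were not taken as pairs: the deviations of same-numbered libraries correlated at r of 0.292, 0.398 and 0.144 for numbers 3 to 5, each closest to its own number, but at 0.0292 for number 2, closest to another (numbers count as pairs here where every r is over 0.1). FaDu met this limit, although its post-hypoxic replicate 3 was also closer to another number, with r of 0.242 to non-hypoxic replicate 4 and 0.208 to non-hypoxic replicate 3. With a replicate block within each line 4 members were called in SCC154, HERC5 at -0.97 (edgeR adjusted p = 0.00409), IFIH1 at -0.61 (0.0426), IFIT1 at 0.76 (0.0443) and IFIT3 at 0.48 (0.0242), and with a block shared across lines 1, HERC5. In the 8 same-numbered SCC154 libraries alone, with the number as a term, HERC5 was called at -0.97 (edgeR adjusted p = 0.0103). The shares of all genes called in these SCC154 fits with the number are not given here. The counts of calls in them are therefore no result about the members in particular. The interaction had 1 call (HERC5) with no filter and 1 with a replicate block within each line, and 0 with 1 library left out. The block changed no call in FaDu over all 18 libraries.

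The other values that changed sign were all uncalled. With FaDu replicates 3 to 5 only, the FaDu log2 fold change was 0.11 for STAT2, 0.16 for IRF7 and 0.73 for MX1, the interaction -0.0490 for STAT2, -0.0835 for IRF7 and -0.40 for MX1, and the line difference of MX1 0.67 in non-hypoxic and 0.27 in post-hypoxic cells. With FaDu replicates 1 and 2 only, IRF1 was at -0.12 in FaDu and 0.21 in the interaction. Without SCC154 non-hypoxic replicate 1 and post-hypoxic replicate 3, STAT2 was at -0.0665 in SCC154 and -0.000456 in the interaction. MX1 in FaDu was at 0.010 with DESeq2, 0.24 with limma voom, 0.000641 with the groups compared alone and 0.20 with either replicate block, and its post-hypoxic line difference was 0.19 with the block shared across lines. IRF1 in the interaction was at 0.0228 with the block within each line. With 1 library left out, the SCC154 values ran from -0.0159 to 0.12 for STAT2 and from -0.35 to 0.0118 for ISG15, and the FaDu values from -0.21 to 0.0214 for STAT2, from -0.16 to 0.23 for IRF7 and from -0.29 to 0.77 for MX1. The interaction ran from -0.0830 to 0.0692 for IRF1, from -0.15 to 0.25 for IRF7 and from -0.43 to 0.62 for MX1, and the line difference of MX1 from -0.73 to 0.33 in non-hypoxic and from -0.30 to 0.14 in post-hypoxic cells. The cause of these changes was not tested beyond the libraries left out.

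With 4 or 5 libraries per group, 1.68 to 2.44 counts per CPM limit members below a few CPM, and 9 of the 39 members fell below the filter. HPV status and line cannot be told apart, and replicate number in FaDu has no stated origin.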
